A study of Homo sapiens with 4 samples.

Results

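Histone deacetylase (HDAC) genes encode the enzymes that take acetyl groups off lysines, and 9 of them were examined for H3K27ac, the acetylation of histone H3 at lysine 27 that marks active promoters and enhancers. The members were HDAC1, HDAC2 and HDAC3 of class I, HDAC4, HDAC5, HDAC7 and HDAC9 of class IIa, HDAC10 of class IIb and HDAC11 of class IV, out of 20046 protein-coding genes in GENCODE release 44. A peak belonged to a gene's window if it overlapped the gene body or the 10 kb on either side. These windows held 137 of 63699 peaks of the control list and 112 of 50119 peaks of the SNHG1-depletion list. HDAC6 and HDAC8 were not analysed here.

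The cells were SK-N-BE(2)C, a MYCN-amplified neuroblastoma line. Control cells (sgCtrl, wild-type genotype) carried a non-targeting gRNA, and sgSNHG1 cells received Cas9 with gRNAs against SNHG1, a long non-coding RNA gene. Both groups went through transfection with Cas9 and a reporter, puromycin selection and sorting of single cells, so that clonal differences and loss of SNHG1 cannot be told apart. Each group had 2 samples, which the study's methods describe as independent ChIP experiments and which were combined into 1 peak list before peaks were called. No value per sample was used, so no spread between replicates can be given, no test was possible and every comparison below describes 2 pooled lists.

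Class I deacetylases are mostly nuclear and work inside corepressor complexes. HDAC1 and HDAC2 are the catalytic subunits of NuRD, SIN3, CoREST and MiDAC, and HDAC3 that of the NCoR and SMRT complexes. Class IIa deacetylases have little catalytic activity of their own, bind MEF2 transcription factors, and leave the nucleus on 14-3-3 proteins when kinases phosphorylate them. HDAC10 is a polyamine deacetylase and HDAC11 removes long fatty acyl groups. An H3K27ac peak at one of these genes is a property of its chromatin and measures neither the amount nor the activity of the enzyme.

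At the start sites, 8 of the 9 HDAC genes had an own H3K27ac peak in both lists, and the fold enrichments of these peaks differed little. Such a peak lay within 1 kb of an annotated start site of the gene, and no protein-coding start site of another gene was nearer to its summit. Over all protein-coding genes, 56.5% had one in both lists, 5.29% in sgCtrl only and 4.15% in sgSNHG1 only. HDAC11 was the member with a start-site peak in the sgSNHG1 list only. Of the 13215 genes with one in either list, 8.03% had it in sgCtrl only and 6.3% in sgSNHG1 only. Of the other 8 genes, 0 differed by more than 1.5-fold in fold enrichment, against 3.54% of the 11322 genes with a start-site peak in both lists. Fold enrichment is the height of the summit over the local background that the peak caller estimated. That background is taken here to come from the same pooled library, since no control library is named.

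For a comparison of the lists, each log2 ratio of sgSNHG1 to sgCtrl was taken relative to the median of all these genes, which was 0.04. The relative log2 ratios of the 8 HDAC genes ran from −0.30 for HDAC4 to 0.13 for HDAC7, with a median of −0.08. Of the 8 values, 7 were below 0 and 1 was above. By the pileup, which is the number of fragments over the summit as recovered from the deposited values, the signs of HDAC2 and HDAC9 turned, so that 5 were below 0 and 3 above, with a median of −0.15. The most negative by pileup was HDAC5, at −0.57. For fold enrichment, the ratio ran from −0.15 to 0.17 between the quartiles of all genes, and HDAC4 and HDAC9 lay below that range. The median fold enrichment of the 8 genes was 7.997 in sgCtrl and 8.123 in sgSNHG1, beside 6.41 and 6.76 over all genes.

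**Figure D1:**
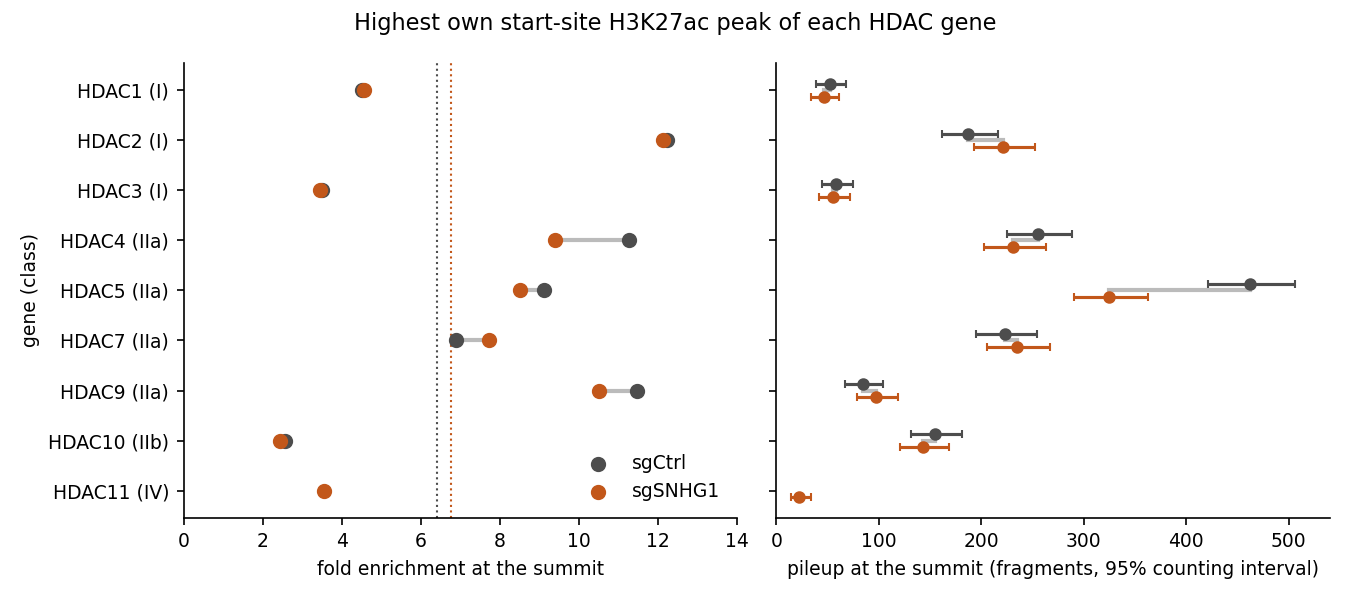
Fold enrichment (left) and pileup in fragments (right) at the summit of the highest own start-site peak of each HDAC gene in the sgCtrl (grey) and sgSNHG1 (orange) lists, with 95% Poisson intervals that cover counting error only and dotted lines at the medians over all genes. HDAC2, HDAC9 and HDAC4 have the highest fold enrichment in both lists, HDAC5 the largest difference in pileup (462 and 325), and HDAC11 a peak in sgSNHG1 only.

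To show which stretch of promoter the peaks did and did not cover, sequences of 250 bases before and 50 bases after the start are printed for 5 genes, from RefSeq on build GRCh38.p14, in the direction of transcription. Capitals mark matches, on either strand, to the GC box GGGCGG, the CCAAT box CCAAT, the E-box CACGTG, the half-site TGACG of the cAMP response element, and TATAAA. HDAC1 (chr1:32291833-32292132, plus strand), HDAC2 (chr6:113971099-113971398, minus strand), HDAC3 (chr5:141636800-141637099, minus strand), HDAC4 (chr2:239401600-239401899, minus strand) and HDAC11 (chr3:13480056-13480355, plus strand) were chosen because they differ in how the peaks lie over them.
HDAC1: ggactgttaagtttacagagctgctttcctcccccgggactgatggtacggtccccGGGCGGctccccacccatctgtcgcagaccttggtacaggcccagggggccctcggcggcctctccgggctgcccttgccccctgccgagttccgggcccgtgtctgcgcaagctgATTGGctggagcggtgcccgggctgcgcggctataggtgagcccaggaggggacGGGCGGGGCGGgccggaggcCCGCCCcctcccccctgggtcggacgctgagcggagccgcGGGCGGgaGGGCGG
HDAC2: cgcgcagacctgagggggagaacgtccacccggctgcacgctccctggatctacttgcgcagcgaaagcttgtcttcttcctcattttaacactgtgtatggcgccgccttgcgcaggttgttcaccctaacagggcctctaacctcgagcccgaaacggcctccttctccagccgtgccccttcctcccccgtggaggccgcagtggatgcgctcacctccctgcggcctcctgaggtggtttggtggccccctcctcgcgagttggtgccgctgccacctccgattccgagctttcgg
HDAC3: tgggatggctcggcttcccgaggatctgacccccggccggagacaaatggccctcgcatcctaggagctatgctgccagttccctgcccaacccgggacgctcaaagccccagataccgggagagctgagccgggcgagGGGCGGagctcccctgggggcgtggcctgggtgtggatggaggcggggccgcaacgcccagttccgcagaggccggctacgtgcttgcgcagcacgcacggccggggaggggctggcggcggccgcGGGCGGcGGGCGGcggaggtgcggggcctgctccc
HDAC4: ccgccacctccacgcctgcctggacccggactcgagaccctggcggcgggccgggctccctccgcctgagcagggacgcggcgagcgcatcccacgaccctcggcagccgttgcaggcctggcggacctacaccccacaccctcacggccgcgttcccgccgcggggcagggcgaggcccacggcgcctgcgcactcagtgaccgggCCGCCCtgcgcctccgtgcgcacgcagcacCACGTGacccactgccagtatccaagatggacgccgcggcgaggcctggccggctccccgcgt
HDAC11: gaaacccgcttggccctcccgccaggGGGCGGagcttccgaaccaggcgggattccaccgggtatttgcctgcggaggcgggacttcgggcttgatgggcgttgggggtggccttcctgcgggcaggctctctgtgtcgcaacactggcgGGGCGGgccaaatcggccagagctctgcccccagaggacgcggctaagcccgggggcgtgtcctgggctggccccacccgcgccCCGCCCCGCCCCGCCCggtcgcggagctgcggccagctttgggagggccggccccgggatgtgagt
The HDAC1, HDAC3 and HDAC11 sequences had 0 of their 300 bases under a peak in either list. The HDAC2 sequence had 288 bases under a peak in both lists. In the HDAC4 sequence 89 bases were under a peak in sgCtrl and all 300 in sgSNHG1. This sequence belongs to a start at 239401649, upstream of the canonical HDAC4 start at 239401020. The peak over it is the upstream HDAC4 peak described below and not the main one.

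The table of RefSeq promoters held 16 sequences of 8 of the 9 members, and the 5 printed ones were rich in G and C. GC content was 73.7% for HDAC1, 64.0% for HDAC2, 74.0% for HDAC3, 76.3% for HDAC4 and 73.7% for HDAC11, against a median of 58.7% over 35116 promoters. The number of CpG dinucleotides was 28, 24, 31, 40 and 30 in the same order, against a median of 14. A GC box was found in 6 of the 16 sequences, 1 each of 6 genes, and in 45.0% of all promoters. HDAC1 held 6 GC boxes, of which a pair shares 1 base, HDAC11 held 5, HDAC10 4, HDAC3 and the upstream HDAC9 promoter 3 each, and HDAC4 1. The HDAC2 and HDAC7 sequences held none of the 5 motifs. A CCAAT box was present in 5 of the 16 sequences and 34.6% of all promoters. The 5 belonged to HDAC1, HDAC9 and HDAC10, and overlapping HDAC9 sequences among them hold the same boxes. The only E-box was in HDAC4, and 7.26% of all promoters held one. The half-site TGACG and TATAAA had 0 matches among the members, against 24.6% and 11.5% of all promoters. These matches describe letters and not bound sites.

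HDAC2 had the highest start-site peak of the class I genes. HDAC2, on chromosome 6 from 113933028 to 114011308 on the minus strand (ENSG00000196591.12), had a summit pileup of 187 fragments in sgCtrl and 221 in sgSNHG1. Its fold enrichment was 12.2 in sgCtrl and 12.1 in sgSNHG1, and its relative log2 ratio was −0.05. On the pileup scale that ratio was 0.18, with a counting interval from −0.10 to 0.47. The HDAC2 peak stood at the 89.9 percentile of the 12383 genes with a start-site peak in sgCtrl and at the 89.3 percentile of the 12154 such genes in sgSNHG1. It was 1252 bases long in sgCtrl and 1360 bases in sgSNHG1, and it lay over the start in both lists, as the printed sequence shows. The start of the antisense gene HDAC2-AS2 lies 1447 bases from that of HDAC2, and ChIP-seq does not tell the strands apart. The HDAC2 window held 1 other peak, in sgCtrl only, with a fold enrichment of 5.77 and a pileup of 33 in the flank past the end of the gene. Its −log10 p was 17.1, and among sgCtrl peaks with a −log10 p of 10 or more, 30.4% had no overlapping sgSNHG1 peak.

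HDAC1, the paralogue of HDAC2 that shares its complexes, had a start-site peak well below that of HDAC2. HDAC1 lies on chromosome 1 from 32292083 to 32333635 on the plus strand (ENSG00000116478.12). Its fold enrichment was 4.50 in sgCtrl and 4.57 in sgSNHG1, a relative log2 ratio of −0.02, and its percentile among genes was 29.1 and 26.3. The pileup was 52 and 46 fragments. On the pileup scale the relative log2 ratio of HDAC1 was −0.24, with a 95% counting interval from −0.84 to 0.37 that includes 0. In sgCtrl the region downstream of the HDAC1 start was called as 2 peaks, of 4.50 and 3.12, and in sgSNHG1 as 1 peak of 971 bases that overlapped both. The bases covered at the HDAC1 start were 694 and 971. No other peak lay in the HDAC1 window except the start-site peak of MARCKSL1, a gene for an actin-binding protein, with a fold enrichment of 8.38 in sgCtrl and 9.62 in sgSNHG1.

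HDAC3 (chromosome 5, 141620876 to 141636849, minus strand, ENSG00000171720.10) had a low start-site peak of nearly the same height in both lists. Its fold enrichment was 3.50 in sgCtrl and 3.45 in sgSNHG1, with pileups of 58 and 55 and a relative log2 ratio of −0.06. Its percentile among genes was 12.6 and 9.47. The canonical start of RELL2, which is transcribed the other way, lies 148 bases from that of HDAC3. Across this gap the RELL2 peak had a fold enrichment of 2.85 in sgCtrl and 4.96 in sgSNHG1, with pileups of 48 and 80. Its relative log2 ratio of 0.76 was past 1.5-fold, as in 1.98% of genes in this direction. The HDAC3 and RELL2 peaks thus lay on either side of the printed sequence, and of the pair the one on the RELL2 side differed between the lists. The third peak of the HDAC3 window, that of DIAPH1, a formin gene, had a fold enrichment of 12.3 and 12.8.

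**Figure D2:**
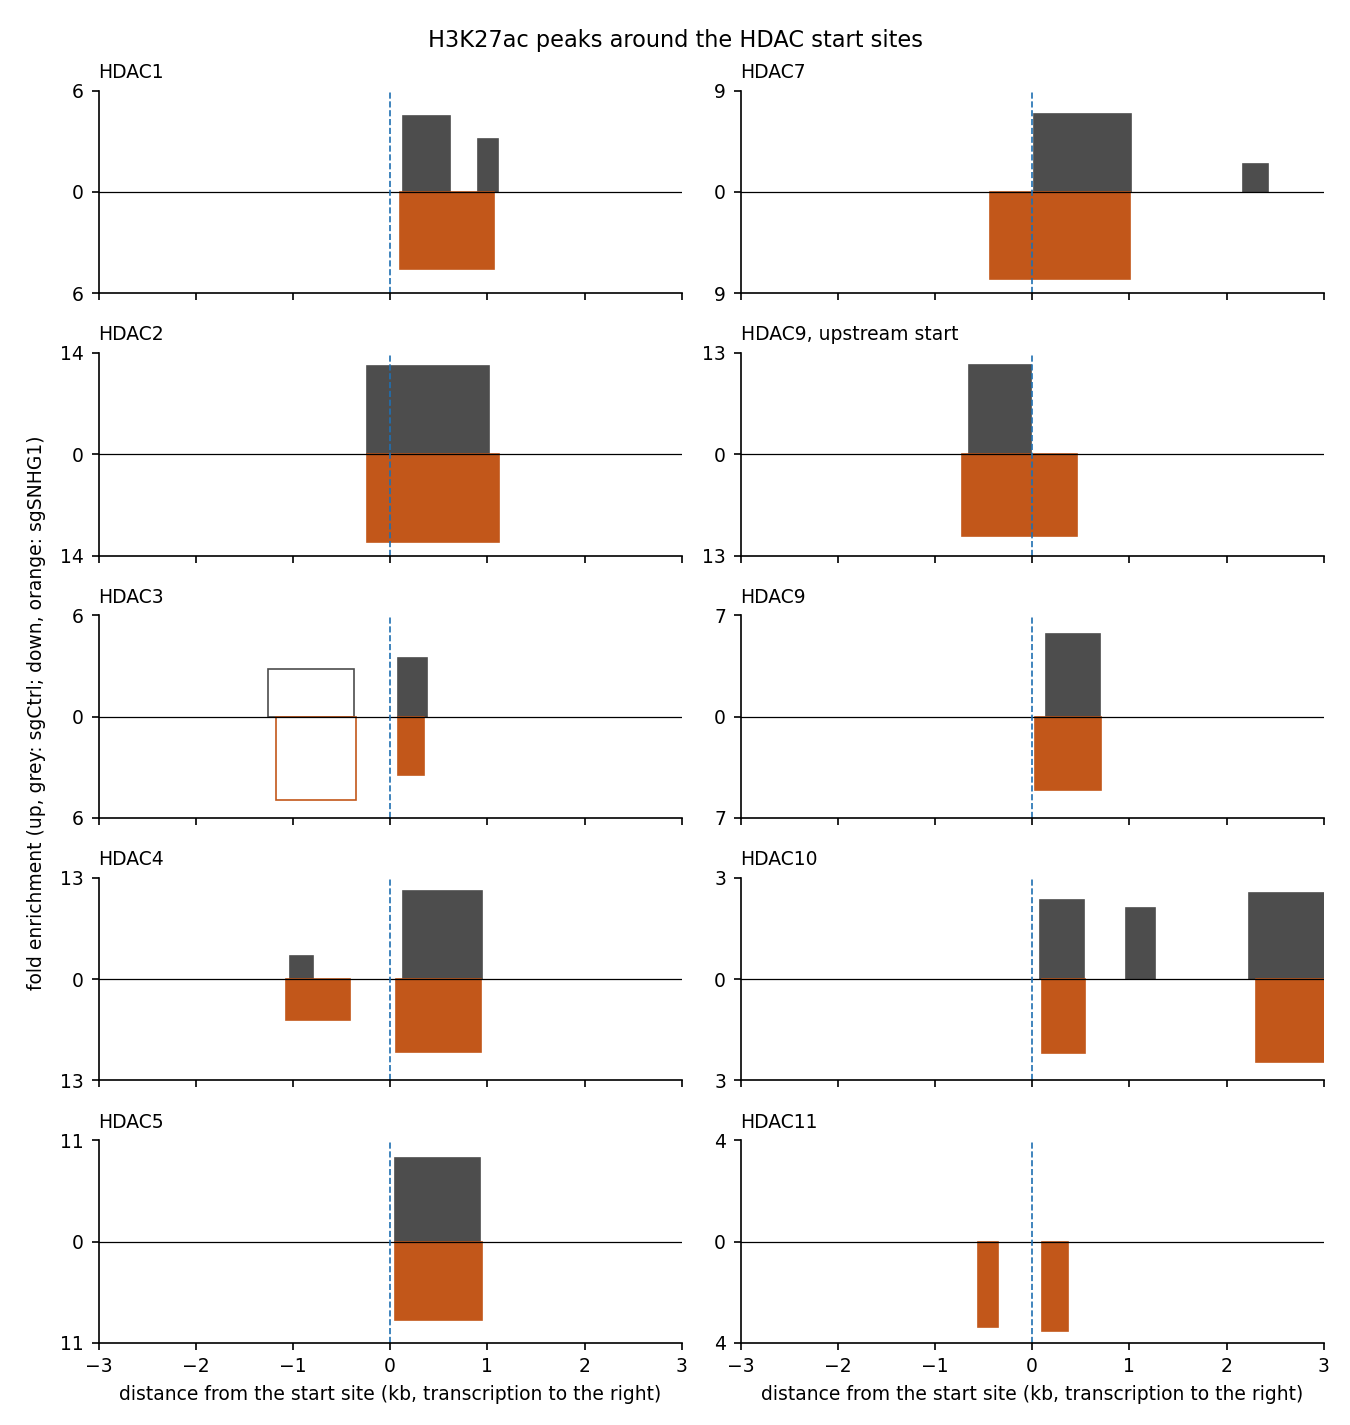
Peaks within 3 kb of the HDAC start sites, with distance from the start on the x axis (kb, transcription to the right) and fold enrichment on the y axis, upward for sgCtrl (grey) and downward for sgSNHG1 (orange). Open bars are start-site peaks of a neighbouring gene. The bars at HDAC4, HDAC7 and HDAC9 reach further over or upstream of the start in sgSNHG1, and HDAC11 has bars in sgSNHG1 only.

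Class IIa genes held most of the H3K27ac peaks, 121 of the 137 in sgCtrl and 97 of the 112 in sgSNHG1. Their windows also made up most of the sequence examined, with 935 kb for HDAC9, 373 kb for HDAC4 and at most 98.3 kb for any other member. Per 10 kb of window in sgCtrl, HDAC4 had 2.30 peaks, HDAC9 0.118 and HDAC10, of class IIb, 3.05. HDAC4 alone held 86 of the sgCtrl and 67 of the sgSNHG1 peaks. HDAC4 (chromosome 2, 239048168 to 239401654, minus strand, ENSG00000068024.18), a repressor of MEF2 targets, had more peaks in its window than all but a few genes, with rank 7 of 20046 in sgCtrl and rank 6 in sgSNHG1. The median protein-coding gene had 2 peaks in each list. The HDAC4 gene is 353 kb long, and peaks covered 11.03% of its window in sgCtrl and 8.36% in sgSNHG1.

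The main HDAC4 start-site peak had the most negative relative ratio of the members. Its fold enrichment was 11.3 in sgCtrl and 9.39 in sgSNHG1, its pileup 255 and 231, and its percentile among genes 86.2 and 74.7. The relative log2 ratio was −0.30, within the range from −0.41 to 0.44 that held the middle 90% of genes (5th to 95th percentile). On the pileup scale it was −0.20 with a counting interval from −0.46 to 0.06. Upstream of it, on the side of the antisense gene HDAC4-AS1 whose start lies 683 bases from that of HDAC4, a second peak went the other way. This upstream peak had a fold enrichment of 3.00 and a pileup of 70 in sgCtrl, and 5.25 and 131 in sgSNHG1. Its log2 ratio, relative to the median of all paired start-site peaks, was 0.78. Of 30 start-site peaks of the HDAC windows that could be paired between the lists, 2 were past 1.5-fold higher in sgSNHG1, against 1.97% of all such pairs, and 0 were past it in the lower direction, against 1.45%. These 2 were the RELL2 peak and the upstream HDAC4 peak, both on the antisense side of an HDAC start.

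**Figure D3:**
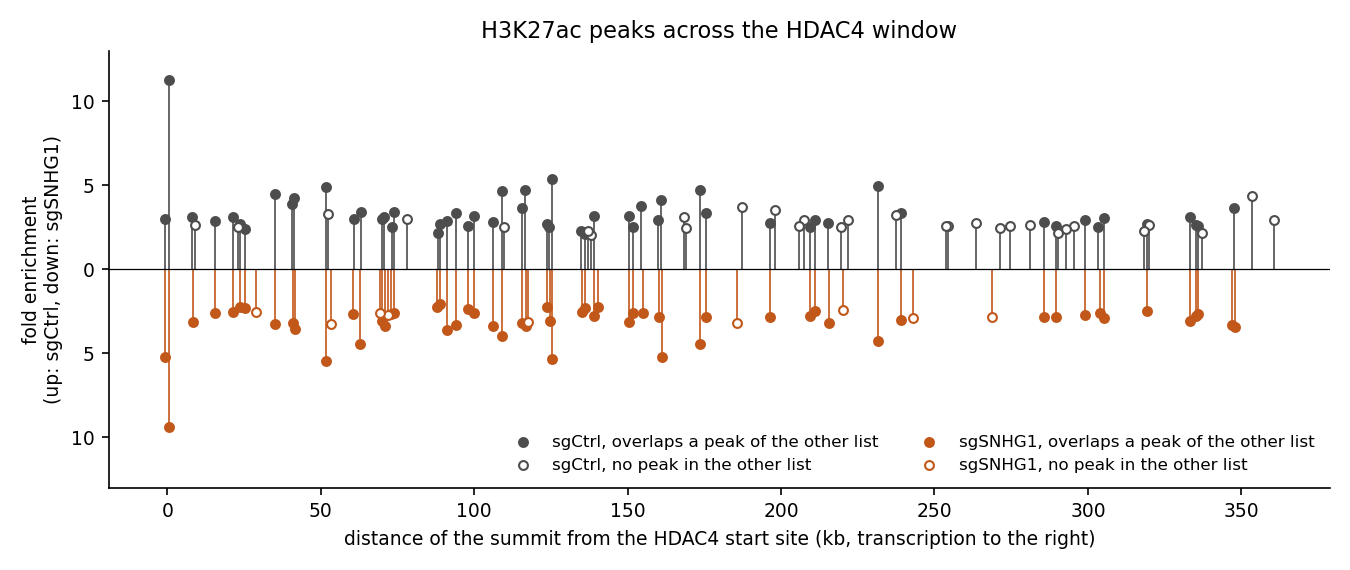
Fold enrichment of every peak in the HDAC4 window against the distance of its summit from the canonical start (kb, transcription to the right), upward for the 86 sgCtrl peaks and downward for the 67 sgSNHG1 peaks, with filled points for peaks that overlap a peak of the other list. Most peaks near the start are filled in both lists, and open sgCtrl points are most frequent far into the gene.

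Within HDAC4, 56 of the 86 sgCtrl peaks overlapped an sgSNHG1 peak and 30 did not. Of the 67 sgSNHG1 peaks, 58 overlapped an sgCtrl peak and 9 did not. Over all peaks of the lists, 38.5% in sgCtrl and 20.8% in sgSNHG1 had no counterpart. The HDAC4 peaks without a counterpart were not evenly placed along the gene. Before the midpoint of the gene body, 9 of 49 sgCtrl peaks had no sgSNHG1 peak, and after it 19 of 35 had none. In sgSNHG1 the numbers without an sgCtrl peak were 5 of 46 before the midpoint and 4 of 21 after it. This division was chosen after the values were seen. Of the 30 HDAC4 peaks in sgCtrl without a counterpart, 5 had a −log10 p under 10, a class in which 75.5% of all sgCtrl peaks had none. Away from start sites, 47.4% of all sgCtrl peaks had no sgSNHG1 peak, and for HDAC4 the share was 37.3%. Of sgSNHG1 peaks away from start sites, 24.8% of all and 15.3% of those of HDAC4 had no sgCtrl peak.

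The HDAC4 peaks that were shared had similar heights in the median. For 47 pairs of peaks away from start sites, the median pileup was 85 in sgCtrl and 69 in sgSNHG1, and the median relative log2 ratio of pileup was 0.00. Of these pairs 22 were lower and 25 higher in sgSNHG1 than the median of all paired peaks, and single values ran from −0.36 to 0.61. Past the midpoint of the gene body most of these pairs were lower, and before it most were higher. This division, too, was chosen after the values were seen. A strong intronic HDAC4 peak 125 kb past the start had a fold enrichment of 5.35 in sgCtrl and 5.31 in sgSNHG1, with pileups of 193 and 185. The peaks around HDAC4 were also fewer in sgSNHG1. Within 5 Mb on either side, outside the window, the lists held 622 and 427 peaks, a ratio of 0.686. The ratio was 0.779 in the HDAC4 window and 0.787 over all peaks of the lists. For the pairs within 5 Mb the median relative log2 ratio of pileup was −0.10.

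Peaks at least 2.5 kb away from every protein-coding start site were joined across gaps of up to 12.5 kb and ranked by the sum of fold enrichment times peak length, and the leading HDAC4 region held rank 18 in both lists. It was ranked among 20326 regions in sgCtrl, where it spanned 151 kb with 35 peaks, and among 16487 in sgSNHG1, where it spanned 108 kb with 24 peaks. The joined regions of HDAC9 held rank 1421 at best in sgCtrl and 2436 in sgSNHG1. HDAC5 came next, at rank 6351 and 4748.

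HDAC5 (chromosome 17, 44076746 to 44123702, minus strand, ENSG00000108840.16), another repressor of MEF2, had the highest start-site pileup of the 9 genes and the only one whose counting interval lay below 0. The pileup was 462 in sgCtrl and 325 in sgSNHG1, a relative log2 ratio of −0.57 with a counting interval from −0.78 to −0.36. That interval takes fragments as independent, although duplicates were kept, and holds no spread between replicates, so it is not a test. Of all genes, 8.9% were lower and 5.69% higher in sgSNHG1 by more than 1.5-fold in pileup, and HDAC5 was just inside that limit. Its fold enrichment was 9.11 and 8.51, a relative log2 ratio of −0.13, and its local background was also lower, at 49.8 fragments in sgCtrl and 37.3 in sgSNHG1. For shared peaks within 5 Mb of HDAC5 the median relative log2 ratio of pileup was −0.11. Its start-site peak was 873 and 891 bases long. The HDAC5 window held 14 sgCtrl peaks, of which 6 had no sgSNHG1 peak, and 10 sgSNHG1 peaks, of which 2 had no sgCtrl peak. Over all peaks these shares were 38.5% and 20.8%. The start-site peak of G6PC3, a glucose-6-phosphatase gene at the edge of the window, had a fold enrichment of 2.07 in sgCtrl and 3.14 in sgSNHG1, a relative log2 ratio of 0.56. Its pileups were 76 and 124, a relative log2 ratio of 0.65, past 1.5-fold.

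HDAC7 (chromosome 12, 47782722 to 47833132, minus strand, ENSG00000061273.18), known for its part in blood vessel and lymphocyte development, was the member with a positive relative ratio. Its start-site fold enrichment was 6.89 in sgCtrl and 7.73 in sgSNHG1, a relative log2 ratio of 0.13. The pileup was 223 and 235, a relative log2 ratio of 0.02 with a counting interval from −0.25 to 0.29. The HDAC7 peak was 998 bases long in sgCtrl and 1442 in sgSNHG1. All its start-site peaks together covered 2532 and 2114 bases, a relative log2 ratio of −0.29. Of the 300 bases of its RefSeq promoter, 29 lay under it in sgCtrl and all 300 in sgSNHG1. The HDAC7 window held 10 sgCtrl and 7 sgSNHG1 peaks, of which 5 and 2 had no counterpart, beside 38.5% and 20.8% of all peaks. The 5 in sgCtrl were low, with fold enrichments of at most 2.58. The start-site peak of the neighbour SLC48A1, a haem transporter gene, was 4.81 and 5.13.

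HDAC9 (chromosome 7, 18086949 to 19002416, plus strand, ENSG00000048052.25), whose product also binds MEF2, had the longest gene body at 915 kb and few peaks for its length. They covered 0.598% of the window in sgCtrl and 0.599% in sgSNHG1. HDAC9 had start-site peaks at 2 places. The peak at the far upstream start had a fold enrichment of 11.5 in sgCtrl and 10.5 in sgSNHG1, with pileups of 84 and 97 and a relative log2 ratio of −0.16. On the pileup scale its relative log2 ratio was 0.15, of the other sign, with a counting interval from −0.29 to 0.59. The peak at the canonical start, far inside the gene, had fold enrichments of 5.73 and 5.09 and a pileup of 54 in both lists. The upstream HDAC9 peak was 642 bases long in sgCtrl and 1184 in sgSNHG1.

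Inside the HDAC9 gene most peaks lay in introns, with low pileups. The window held 11 sgCtrl and 13 sgSNHG1 peaks, and HDAC9 and HDAC11 were the members with more peaks in sgSNHG1. For HDAC9, 3 of the 11 had no sgSNHG1 peak, against 38.5% of all sgCtrl peaks, and 4 of the 13 had no sgCtrl peak, against 20.8% of all sgSNHG1 peaks. An intronic peak 350 kb past the canonical start had a fold enrichment of 6.19 in sgCtrl and 5.09 in sgSNHG1, with pileups of 49 and 45. The 6 HDAC9 pairs away from start sites had a median pileup of 38.5 and 34, and a median relative log2 ratio of 0.24 for pileup and, of the other sign, −0.09 for fold enrichment.

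HDAC10 (chromosome 22, 50245183 to 50251405, minus strand, ENSG00000100429.18) was the shortest gene, at 6.22 kb, with the largest part of its window under peaks. They covered 18.7% of the window in sgCtrl and 14.8% in sgSNHG1, and the window of 26.2 kb is mostly flank. Own start-site peaks of HDAC10 made up 1604 of the 4914 covered bases in sgCtrl and 1506 of 3873 in sgSNHG1. The rest lay under start-site peaks of neighbours and, in sgCtrl, flank peaks. HDAC10 start-site peaks were low over a high background, with a fold enrichment of 2.56 in sgCtrl and 2.45 in sgSNHG1 and pileups of 155 and 143. The local background there was 59.9 and 57.8 fragments. That peak lay at an internal start site, and the one at the canonical start had fold enrichments of 2.35 and 2.17 and pileups of 136 and 110. On fold enrichment HDAC10 stood at the 2.10 percentile of genes in sgCtrl and the 0.872 percentile in sgSNHG1. The relative log2 ratio was −0.10. Peaks were sparser in sgSNHG1 over the whole region, with 463 and 291 peaks within 5 Mb of the window. That ratio of 0.629 stood beside 0.750 in the HDAC10 window and 0.787 over all peaks of the lists. Of the 8 sgCtrl peaks of the window 4 had no sgSNHG1 peak, and of the 6 sgSNHG1 peaks 2 had no sgCtrl peak, beside 38.5% and 20.8% of all peaks. The 4 in sgCtrl were the 2 flank peaks, a start-site peak of MAPK12 and an own start-site peak. The 2 in sgSNHG1 were a start-site peak of TUBGCP6 and an own start-site peak. The neighbours TUBGCP6, a gene for a gamma-tubulin complex protein, and MAPK12, a p38 kinase gene, had relative log2 ratios of −0.03 and 0.30. By pileup they were at −0.04 and, with the sign turned for MAPK12, −0.19. The MAPK12 pileup was 154 in sgCtrl and 141 in sgSNHG1.

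HDAC11 (chromosome 3, 13479724 to 13506424, plus strand, ENSG00000163517.15) had 0 peaks in its window in sgCtrl and 3 in sgSNHG1. A pair of them lay on either side of the printed promoter, with fold enrichments of 3.36 and 3.55, pileups of 20 and 22 and −log10 p values of 6.76 and 7.69. The third, in an intron 14.4 kb past the start, had a fold enrichment of 4.34, a pileup of 32 and a −log10 p of 12.7. The start-site peaks of HDAC11 were thus close to the limit of the lists, whose lowest −log10 p was 6.01 in sgCtrl. Among sgSNHG1 peaks with a −log10 p under 10, 40.8% had no sgCtrl peak, and among those at 10 or more 15.2% had none. At a minimum of 10, HDAC11 had no start-site peak in either list. A window with no listed peak can hold signal below the threshold, so the absence of HDAC11 peaks in sgCtrl is not a measure of 0. The start of HDAC11-AS1 lies 253 bases from that of HDAC11, and one of the peaks lies on its side.

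**Figure D4:**
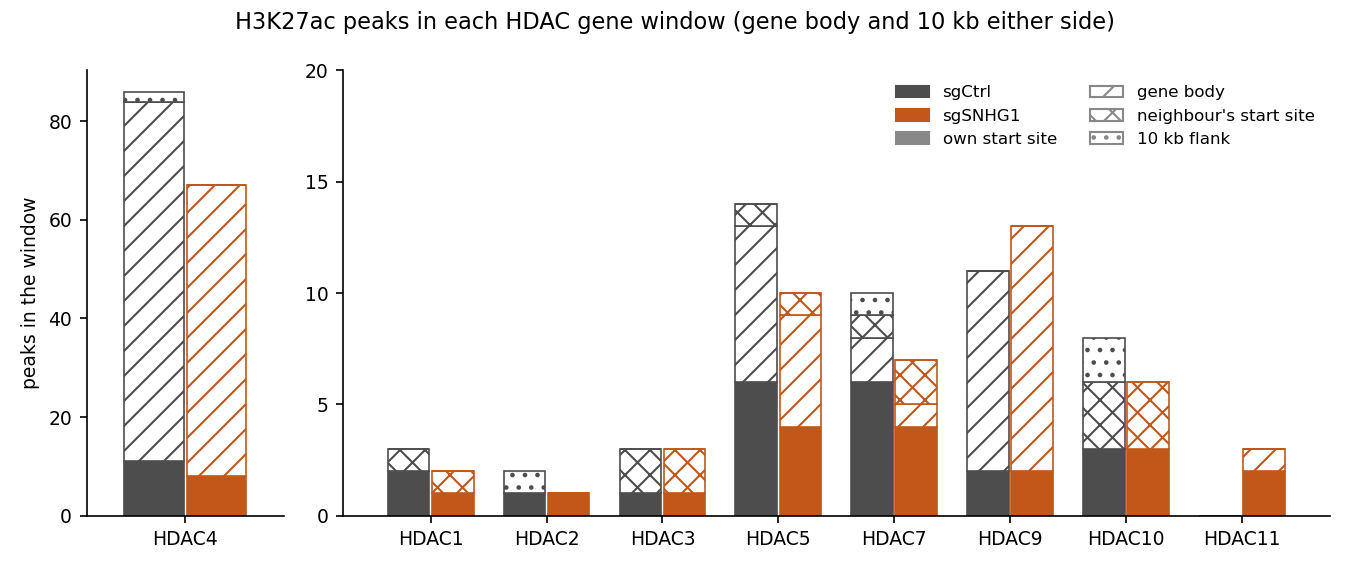
Number of H3K27ac peaks in each HDAC gene window (y axis, with a separate scale for HDAC4) in the sgCtrl (grey) and sgSNHG1 (orange) lists, divided by position. HDAC4 holds 86 and 67 peaks, HDAC9 and HDAC11 have more peaks in sgSNHG1, and peaks in the 10 kb flanks away from start sites appear in sgCtrl only.

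Over all 9 windows, the sgSNHG1 list held fewer peaks, in about the proportion of the lists as a whole. The ratio of peak numbers was 0.818 in the windows and 0.787 over all peaks, and the ratio of covered bases was 0.813 and 0.768. Without HDAC4 the windows held 51 and 45 peaks, a ratio of 0.882. Of the 137 sgCtrl peaks 88 overlapped an sgSNHG1 peak, which is 64.2% (95% Wilson interval 55.9 to 71.8, counting error only), and 35.8% did not, against 38.5% of all sgCtrl peaks. Of the 112 sgSNHG1 peaks, 90 overlapped an sgCtrl peak, which is 80.4% (72.0 to 86.7), and 19.6% did not, against 20.8% of all. Both shares without a counterpart were near those of the whole lists.

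At own start sites of the HDAC genes, 8 of 32 sgCtrl peaks and 4 of 26 sgSNHG1 peaks had no counterpart, against 20.3% and 14.2% of all start-site peaks. Away from start sites the shares were 41.2% and 20.8%, against 47.4% and 24.8%.

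By position, the HDAC windows held 32 sgCtrl and 26 sgSNHG1 peaks at own start sites, 91 and 77 in gene bodies, 8 and 9 at start sites of neighbours and 6 and 0 in the flanks. All 6 flank peaks were thus without a counterpart, with fold enrichments from 2.23 to 5.77. They belonged to HDAC4 and HDAC10, each with 2, and to HDAC2 and HDAC7. Most peaks lay in introns, 103 of 137 and 84 of 112. Of 57 paired HDAC peaks away from start sites, 0 were past 1.5-fold in fold enrichment in either direction, against 1.2% higher and 2.33% lower over 22339 pairs. Their median relative log2 ratio was 0.01 for fold enrichment and 0.00 for pileup.

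The highest start-site peak was longer in sgSNHG1 for 7 of the 8 HDAC genes, against 60.9% of all genes. HDAC3 was the exception, at 293 and 268 bases. The median length over the 8 genes was 832 and 931 bases, and over all genes 622 and 648. The difference was past 1.5-fold for 2 of the 8, HDAC1 and HDAC9, against 10.7% of all genes. Of the 16 RefSeq promoters of the members, 3 were partly under a peak in sgCtrl and 2 of these, HDAC4 and HDAC7, were wholly under one in sgSNHG1. Over all promoters 9.76% of those partly covered in sgCtrl were wholly covered in sgSNHG1.

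Most genes of the complexes in which the HDACs work had a start-site peak in both lists. Of 67 genes for complex subunits, partners, kinases and sirtuins, 57 had a start-site peak in both lists, 2 in sgCtrl only, 2 in sgSNHG1 only and 6 in neither. The shares of all protein-coding genes were 56.5% in both lists, 5.29% in sgCtrl only and 4.15% in sgSNHG1 only. The median relative log2 ratio was −0.00, with 28 of 57 above 0. Past 1.5-fold in fold enrichment, 3 were higher in sgSNHG1 and 0 lower, against 1.98% and 1.56% of all genes. By pileup 5 were higher, CHD3, MBD2, BRMS1L, TRERF1 and SIRT5, and 2 lower, SAP30 and MIDEAS, against 5.69% and 8.9% of all genes. SAP30, a SIN3 subunit gene, had pileups of 204 in sgCtrl and 107 in sgSNHG1, a relative log2 ratio of pileup of −0.99. CHD3 and SAP30 are named for these values, after they were seen.

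All 12 NuRD genes and all 5 NCoR and SMRT genes had start-site peaks in both lists, against 56.5% of all protein-coding genes. The median relative log2 ratio was 0.01 for NuRD, 0.00 for SIN3, 0.02 for CoREST, 0.02 for NCoR and SMRT, and 0.10 for the 3 MiDAC genes. In NuRD, MBD2, which binds methylated DNA, was the most positive, with a fold enrichment of 5.43 in sgCtrl and 9.19 in sgSNHG1, pileups of 31 and 51 and a relative log2 ratio of 0.72. GATAD2A, which links the complex's subunits, was the most negative at −0.23. In SIN3, the extremes were BRMS1L, with fold enrichments of 8.44 and 13.4 and a relative log2 ratio of 0.63, and ARID4A at −0.32. SAP18 of the same list had a start-site peak in sgSNHG1 only, with a fold enrichment of 6.63 and a pileup of 37. In MiDAC, TRERF1 had fold enrichments of 5.56 and 8.62, a relative log2 ratio of 0.60. MIDEAS was at 0.07 by fold enrichment and at −0.69 by pileup, with 233 and 150 fragments. MBD2, BRMS1L and TRERF1 were the 3 genes past 1.5-fold in fold enrichment.

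The other lists had no gene past 1.5-fold in fold enrichment. In CoREST the relative log2 ratios ran from −0.19 for PHF21A to 0.25 for RCOR3. By pileup PHF21A was at 0.19, of the other sign, with 108 and 128 fragments, and RCOR3 at 0.35. In the NCoR and SMRT list they ran from −0.30 for NCOR1, the scaffold that holds HDAC3, to 0.24 for TBL1XR1. Among 11 partners of class IIa HDACs, the range was from −0.15 for the transcription factor MEF2A to 0.08 for the 14-3-3 gene YWHAE. SFN, another 14-3-3 gene, had a low peak of 2.47 in sgCtrl only, and MEF2B and MEF2C had no start-site peak in either list. Among 8 kinases of class IIa HDACs the range was from −0.32 for CAMK1 to 0.14 for PRKD3, and PRKD1, PRKD2 and SIK1 had no start-site peak.

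**Figure D5:**
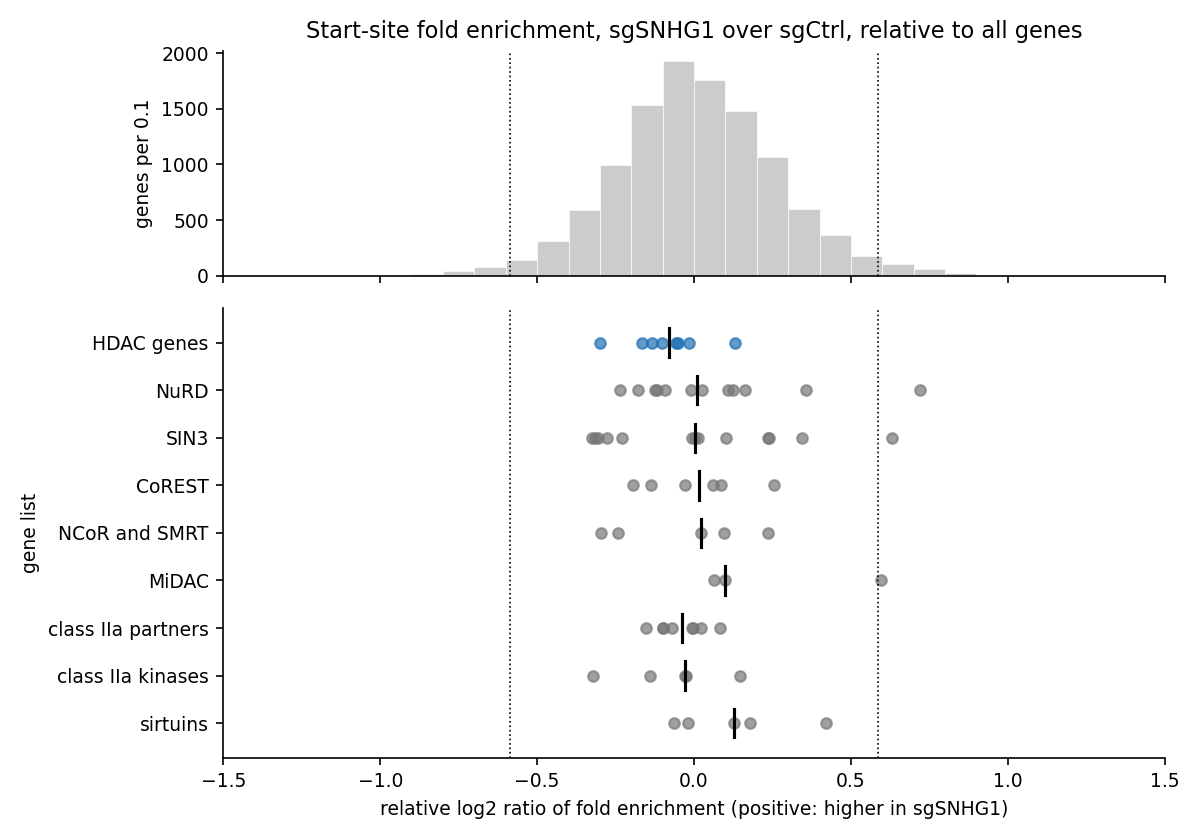
Relative log2 ratio of start-site fold enrichment, sgSNHG1 over sgCtrl (x axis), for all 11322 genes with a start-site peak in both lists (top, number of genes per bin, shown from −1.5 to 1.5) and for each gene of the HDAC set and the complex and partner lists (bottom, 1 point a gene, bars at list medians). Dotted lines mark 1.5-fold. The HDAC genes lie between −0.30 and 0.13, and 3 genes of the other lists lie past 1.5-fold on this scale.

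For the lists as a whole, the median fold enrichment was 3.75 in sgCtrl and 3.89 in sgSNHG1, and the median pileup 55 and 52 fragments. The lowest local background recovered at any peak of the list was 4.89 and 4.66 fragments, and depth per sample is unknown. Within 1 kb of the SNHG1 start sites the lists held 3 and 2 peaks. The highest had a fold enrichment of 4.06 and a pileup of 99 in sgCtrl, and 3.63 and 63 in sgSNHG1, and these were peaks at different places that did not overlap. A peak list does not show whether the gene was cut. Of 9 genes that mark adrenergic neuroblastoma cells, 8 had a start-site peak in sgCtrl and 9 in sgSNHG1, where DBH, an enzyme of noradrenaline synthesis, was added. Start-site peaks in both lists were also present at SPI1 (1 of 4 blood genes), at EPCAM and CDH1 (2 of 3 epithelial genes), at ACTA1 and MYOD1 (2 of 2 muscle genes) and at 0 of 2 hepatocyte genes. The part of these in the HDAC values was not tested.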

How the data were processed

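The 4 samples, 2 per group, were analysed from 2 pooled H3K27ac peak lists. The authors trimmed reads with cutadapt and used BWA for alignment to GRCh38. They merged the reads of the replicates and ran MACS2 on each group, keeping duplicates, at a p-value of 1e-06. Versions, and any control library, are not given in the sources used here. The deposited fold enrichment is a ratio of summit height to local background. If that background comes from the ChIP library itself, broad acetylation around a peak lowers it. The deposited −log10 p grows with depth. The authors' −log10 q column and the deposited score, which is taken from the −log10 p, were not used for results. Depth per sample is unknown and was not inferred.

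The pileup was recovered from fold enrichment and −log10 p, with 1 fragment added to pileup and background, and 99.9% of values in each list were whole within 0.01. Its intervals (95%, Poisson for a pileup and conditional binomial for a ratio) cover counting error only. They take fragments as independent. Duplicates were kept and are not independent molecules, so the intervals can be too narrow even for counting error. Pileups were divided by the lowest local background recovered at any peak of each list before ratios were taken. Peaks were shared at an overlap of at least 1 base. Gene models were those of GENCODE release 44, and promoter sequences those of RefSeq. Scripts in Python 3.11.15 used scipy 1.17.1 and pandas 2.3.3 on numpy 2.4.6, with figures from matplotlib 3.10.9, and were tested on simulated data. The members, the lists of complex and marker genes, the motifs and the comparisons were chosen with earlier results of these data known. Named were the 9 HDAC genes, neighbours with a start-site peak in an HDAC window and, for each complex or partner list, the genes with the most positive and most negative ratio and those with a start-site peak in 1 list only; genes of those lists with no start-site peak were named after their values were seen. A gene under this naming rule is not reported here. Alternatives changed the p-value limit, list size, window, overlap, start-site distance, start sites, neighbours and measure.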

Additional observations from a re-analysis of the deposited data

How the results depend on the processing

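No paired analysis was possible because each list pools its samples, and the fits without 1 replicate were not run either. Of 90 values recomputed under other settings, 5 moved past the limits set for them and 85 were counted as kept. Values on the percentile scale had no limit and were counted as kept whatever they were. For the ratio of peak numbers the limit was 1.5-fold either way. Of 56 values of single genes on the other scales, 53 kept within their limits and 3 moved. The share of sgCtrl peaks of the HDAC windows that overlapped an sgSNHG1 peak was 54.0% when the overlap had to reach 50% of both peaks and 78.1% when a peak within 1 kb was enough, as these definitions are stricter and looser by construction. The ratio of peak numbers ran from 0.728, with a −log10 p of at least 10, to 0.949, with lists of equal size. The 8 HDAC genes kept a start-site peak in both lists under each setting tried, with a median relative log2 ratio from −0.15 to −0.07. For single genes, the other 3 values that moved were HDAC5 by pileup (−0.57), and HDAC7 (−0.29) and HDAC9 (0.63) by bases covered, and the last of these was past 1.5-fold; the cause was not tested. The sign of the ratio also turned for HDAC2 (0.18) and HDAC9 (0.15) by pileup and for HDAC1 (0.46) and HDAC2 (0.09) by bases covered. Leaving out HDAC4, which was chosen after seeing the data, gave a ratio of 0.882. Peak lists hold no values below the threshold, so low signal at HDAC11 in sgCtrl was not detectable.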

Other observations

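The sirtuins, which remove acetyl groups with NAD rather than zinc and form class III of the deacetylases, had start-site H3K27ac peaks at most of their genes. Of the 7 sirtuin genes, 5 had a peak in both lists, against 56.5% of all protein-coding genes, of which 5.29% had one in sgCtrl only. These 5 had a median fold enrichment of 4.44 in sgCtrl and 4.60 in sgSNHG1 and a median relative log2 ratio of 0.13. By pileup their relative log2 ratios ran from −0.40 to 0.74, and most were below 0. The most positive was SIRT5, a mitochondrial enzyme that removes succinyl and malonyl groups, with fold enrichments of 9.92 in sgCtrl and 13.6 in sgSNHG1, pileups of 91 and 158 and a relative log2 ratio of 0.42 for fold enrichment and 0.74 for pileup. The most negative was SIRT7, a nucleolar enzyme, at −0.07, with fold enrichments of 4.44 and 4.35. By pileup SIRT7 was at −0.40, with 230 fragments in sgCtrl and 182 in sgSNHG1. SIRT3, the main mitochondrial deacetylase, had a start-site peak in sgCtrl only, with a fold enrichment of 4.03, a pileup of 50 and a −log10 p of 16.8. SIRT4 had none in either list. With 1 pooled list per group, none of these differences could be tested.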
